A study of Mus musculus with 35 samples.

Results

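The genes described here are the enolases Eno1, Eno2 and Eno3 and the Eno1 copies Eno1b and Gm4735, 5 of the 47069 gene identifiers measured in cultured mouse macrophages. They were chosen by symbol because earlier values of these same libraries differed between wild-type and AMPKα1-/- cells, so every comparison of the genotypes for these 5 genes is a description and carries no test. What the choice did not use is their response to treatment within a genotype, which was tested.

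Bone marrow-derived macrophages (BMDMs) were grown from marrow of C57BL/6 mice in medium conditioned by L929 fibroblasts, and each library measured the RNA of one culture. Wild-type and AMPKα1-/- cultures were kept for 24 h with vehicle (DMSO), with dexamethasone (Dex, 100 nM), with LPS (100 ng/ml) or DAMPs (1 µg/ml), or with LPS and Dex or DAMPs and Dex combined. There were 3 libraries per group and 2 of wild-type LPS (replicates 2 and 3; replicate 1 was not analysed here), which gives 17 wild-type and 18 AMPKα1-/- libraries in 12 groups. Dex is a synthetic glucocorticoid, LPS a bacterial cell wall component that activates macrophages, and DAMPs are signals of damaged tissue, whose composition the sources used here do not give.

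AMPKα1 is a catalytic subunit of the energy-sensing kinase AMPK and is encoded by Prkaa1. The sources used here describe neither the allele behind AMPKα1-/- nor how these mice relate to the wild-type mice, and while the study's methods speak in general of cultures from individual mice, the labels do not tie these libraries to mice, so that p-values measure the spread between these libraries, which may be technical. The Prkaa1 transcript (chr15:5143861-5181899) did not separate the labels. Its level was 8.59 to 26.1 FPKM (fragments per kilobase of gene and 1000000 fragments of the library) in wild-type libraries, with a median of 15.3, and 9.05 to 24.0 FPKM with a median of 15.1 in the others. The groups overlapped in 6 of 6 treatments. The second genotype is therefore called labelled AMPKα1-/- throughout.

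Library totals, worked out from what a single fragment is worth in the FPKM of weakly expressed genes, were 15837203 to 31955298 fragments. All 7 macrophage markers examined were expressed, and Lyz2, the lysozyme of myeloid cells, was the most abundant of them at 10343.5 to 35906 FPKM. Summed markers of T cells, B cells, dendritic cells, erythroid cells and neurons stayed at or below 2.05 FPKM in every library.

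Enolase carries out the penultimate step of glycolysis, the dehydration of 2-phosphoglycerate to phosphoenolpyruvate, and works as a dimer. Mammals have an α form that most tissues use, encoded by Eno1, a γ form known from neurons, encoded by Eno2, and a β form known from muscle, encoded by Eno3. Activated macrophages draw strongly on glycolysis, and Eno1 is a known target of the hypoxia-inducible factor HIF1. Processed copies arise when an mRNA is copied back into DNA, which leaves a copy without introns elsewhere in the genome.

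In the GRCm38 build with the GENCODE M21 annotation, Eno1 (ENSMUSG00000063524) lies at chr4:150236721-150248879 on the plus strand. Eno1b (ENSMUSG00000059040), a protein-coding gene that the annotation tags as a retrogene, lies at chr18:48045335-48048412 on the plus strand, and Gm4735 (ENSMUSG00000064193), annotated as a processed pseudogene of a single exon, at chr2:80837141-80838442 on the plus strand. Eno2 (ENSMUSG00000004267) lies at chr6:124760053-124769673 on the minus strand and Eno3 (ENSMUSG00000060600) at chr11:70657202-70662513 on the plus strand.

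The copies are nearly the same as Eno1 in sequence, which matters for how reads are divided between them. Against the Eno1 transcript ENSMUST00000080926 (2027 bases, of which 399 to 1703 code for protein), Gm4735 was 99.6% identical over its 1302 bases with 5 substitutions and no gap. The longer transcript of Eno1b was 99.5% identical over 1652 aligned bases with 9 substitutions, 8 of them in the coding part, and no gap. At all 5 positions where Gm4735 differs from Eno1, Eno1b carries the same base as Gm4735. The substitutions, written with the Eno1 base first and counted from the first base of the Eno1 start codon, are T726C, T816G, A1056G, T1224C and C1233T, and all 5 fall on the third base of a codon.

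The 4 stretches of coding sequence that hold these positions are shown in pairs, since they are the places within the aligned sequence at which a read can tell Eno1 from Gm4735. Gm4735 matches bases 399 to 1700 of the Eno1 transcript, and reads that reach beyond these also tell them apart. Each line runs 5′ to 3′ with 30 bases on either side of the substitution, the substituted base is in capitals, and the last pair holds both T1224C and C1233T. The Eno1 stretches around T726C and T816G lie within 1 coding exon, chr4:150246598-150246658 and chr4:150246688-150246748, while those around A1056G and T1224C cross an intron. The Gm4735 stretches start at chr2:80837836, 80837926, 80838166 and 80838334, and sequences and positions come from the GENCODE M21 transcripts on GRCm38.
Eno1 around T726C: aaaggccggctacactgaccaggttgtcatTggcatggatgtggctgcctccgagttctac
Gm4735 around T726C: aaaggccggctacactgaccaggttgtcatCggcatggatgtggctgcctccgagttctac
Eno1 around T816G: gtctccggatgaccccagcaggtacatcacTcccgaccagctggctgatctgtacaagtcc
Gm4735 around T816G: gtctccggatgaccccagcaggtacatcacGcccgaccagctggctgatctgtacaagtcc
Eno1 around A1056G: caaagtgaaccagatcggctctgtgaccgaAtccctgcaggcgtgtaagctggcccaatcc
Gm4735 around A1056G: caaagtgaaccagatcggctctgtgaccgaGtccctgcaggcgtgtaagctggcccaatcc
Eno1 around T1224C and C1233T: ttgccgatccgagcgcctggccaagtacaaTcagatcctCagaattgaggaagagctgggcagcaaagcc
Gm4735 around T1224C and C1233T: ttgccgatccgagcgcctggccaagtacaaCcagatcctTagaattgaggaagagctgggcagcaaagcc

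The coding sequence before the first of these positions is shared, and the longest run without a difference from Eno1 was 725 bases in Gm4735 and 751 bases in the longer Eno1b transcript. Of all windows of 50 bases, 83.3% of those in Gm4735 and 81.8% of those in the aligned part of Eno1b were identical to Eno1. With windows of 150 bases the shares were 59.3% and 55.0%. Read length and settings for multi-mapping reads were not stated by the sources used here. A value for one copy is therefore uncertain, and the sum over Eno1, Eno1b and Gm4735 is given beside each single gene. Should reads that match several copies have been left out, they are missing from the sum as well.

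The sum can be formed from FPKM or from fragments, and the choice changes its weights. The values fit a gene length of 934 bases for Eno1, the mean of its 11 annotated transcripts and shorter than its 2027-base mRNA, but 1757 bases for Eno1b and 1302 for Gm4735. A fragment assigned to Eno1 therefore adds more FPKM than a fragment assigned to Eno1b. Fragments recovered with these lengths are given next to FPKM.

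Eno1 was the most abundant enolase in every library and lay higher in the libraries labelled AMPKα1-/- than in wild type under all 6 treatments. Its copies Eno1b and Gm4735 were measured in every wild-type library and were at or near 0 in every library labelled AMPKα1-/-. The sum over the copies was still higher in the libraries labelled AMPKα1-/-, though by less than Eno1 alone. Eno2 and Eno3 had lower means there in 6 of 6 treatments, with overlap in some of them.

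With vehicle, Eno1 was at 513, 584 and 594 FPKM in the wild-type libraries and at 899, 997 and 925 FPKM in those labelled AMPKα1-/-. With Dex it was at 304, 304 and 337 FPKM in wild type and at 671, 889 and 630 FPKM in the libraries labelled AMPKα1-/-. The lowest library labelled AMPKα1-/- lay above the highest wild-type library in both treatments, and the difference of mean log2(FPKM + 1) was 0.74 with vehicle and 1.19 with Dex, the smallest and the largest of the 6.

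With LPS the 2 wild-type libraries had 1246 and 1263 FPKM of Eno1, and the 3 labelled AMPKα1-/- had 2396, 2827 and 1556. With LPS + Dex the values were 905, 1139 and 1221 FPKM in wild type and 1999, 2013 and 1918 FPKM in the libraries labelled AMPKα1-/-. The LPS libraries labelled AMPKα1-/- spread the most of all 12 groups, with an SD of 647 FPKM (n = 3), and their lowest library still lay above both wild-type ones.

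With DAMPs Eno1 was at 389, 503 and 435 FPKM in wild type and at 822, 845 and 651 FPKM in the libraries labelled AMPKα1-/-. With DAMPs + Dex it was at 353, 349 and 337 FPKM and at 611, 797 and 663 FPKM. Over the 6 treatments the ratio of mean FPKM was 1.67 to 2.32, and the genotypes did not overlap in 6 of 6. Across all 11354 genes tested, 23 (0.203%) were higher in the libraries labelled AMPKα1-/- without overlap in all 6 treatments, Eno1 among them by the way it was chosen.

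Eno1b, the retrogene on chromosome 18, was at 34.6 to 179 FPKM in the 17 wild-type libraries. In the 18 libraries labelled AMPKα1-/- it was at 0 to 0.37 FPKM. In fragments these levels were 1053 to 7218 per wild-type library and 0 to 11 per library labelled AMPKα1-/-, or 50516 against 101 in all. The mean FPKM of a wild-type group was 228 to 720 times that of its counterpart, a ratio that rests on few fragments in the lower group.

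By treatment, Eno1b was at 63.4, 79.0 and 71.2 FPKM with vehicle and at 37.6, 34.6 and 40.9 FPKM with Dex in wild type. With LPS it was at 130.1 and 144 FPKM, and with LPS + Dex at 99.7, 147 and 179 FPKM. The LPS and LPS + Dex libraries were thus above all other wild-type libraries, as they were for Eno1. With DAMPs the values were 44.0, 64.6 and 56.4 FPKM, and with DAMPs + Dex 47.7, 61.3 and 40.6 FPKM.

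Gm4735 was the least abundant copy, at 4.15 to 17.1 FPKM in wild type and 0 to 0.21 FPKM in the libraries labelled AMPKα1-/-. This was 90 to 509 fragments per wild-type library, 4221 in all, against 0 to 5 fragments per library labelled AMPKα1-/-, 37 in all. Both copies were lower in the libraries labelled AMPKα1-/- without overlap in 6 of 6 treatments. Across all genes tested, 14 (0.123%) were lower in this way in all 6 treatments, a count that includes both copies.

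**Figure D1:**
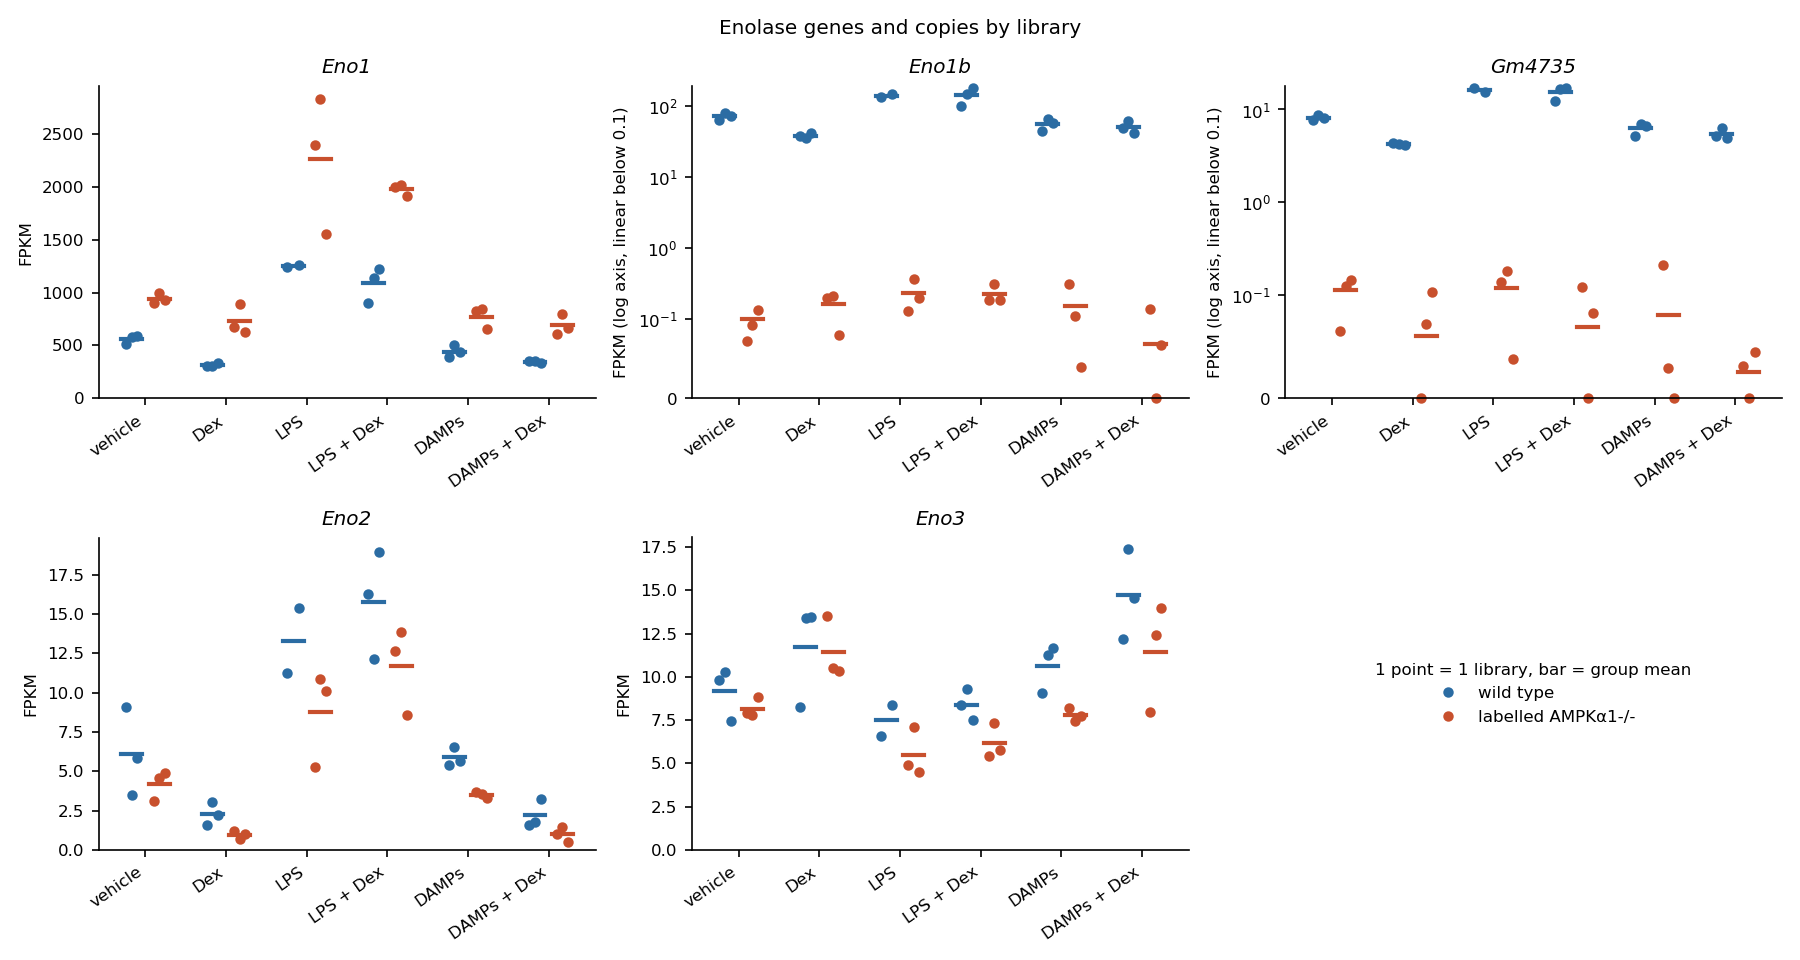
FPKM of the 5 genes in each of the 35 libraries (points; blue wild type, red labelled AMPKα1-/-; horizontal bars are group means) for the 6 treatments. Eno1, Eno2 and Eno3 are on linear axes and the copies on a log axis that is linear below 0.1; Eno1b lies at 34.6 to 179 FPKM in wild type and at 0 to 0.37 FPKM in the libraries labelled AMPKα1-/-, and Eno1 is higher in the latter in every treatment.

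The division of fragments among the copies was steady across the wild-type libraries. Eno1 held 79.6% ± 1.97 (SD, n = 17) of the fragments summed over the copies, Eno1b 18.8% ± 1.91 and Gm4735 1.58% ± 0.11. The Eno1b share ran from 16.2% in a wild-type LPS library to 24.4% in a wild-type DAMPs + Dex library. Gm4735 had 8.41 ± 0.68 fragments (SD, n = 17) for every 100 of Eno1b. In the libraries labelled AMPKα1-/- Eno1b held 0.0267% ± 0.0176 (SD, n = 18) and Gm4735 0.00988% ± 0.00962.

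The copies moved together over the wild-type libraries. Pearson correlations of log2(FPKM + 1) over these 17 libraries were 0.97 between Eno1 and Eno1b, 0.99 between Eno1 and Gm4735 and 0.99 between Eno1b and Gm4735, as a description over libraries that share treatments and depth.

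As FPKM, the sum over the copies was 584 to 674 in wild-type vehicle libraries and 899 to 998 in those labelled AMPKα1-/-, and 343 to 382 against 630 to 889 with Dex. It was 1393 and 1423 against 1556 to 2828 with LPS, and 1017 to 1417 against 1918 to 2013 with LPS + Dex. It was 438 to 575 against 652 to 845 with DAMPs, and 383 to 417 against 611 to 797 with DAMPs + Dex. The ranges did not touch in any treatment.

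The sum of FPKM was 1.46 to 2.04 times as high in the libraries labelled AMPKα1-/-, with a mean log2 difference of 0.71 over the 6 treatments, against 0.90 for Eno1 alone. Counted as fragments per 1000000, the sum was 1.33 to 1.86 times as high, with a mean log2 difference of 0.57 and again no overlap in 6 of 6 treatments. With LPS the fragments came closest, at 1415 and 1453 per 1000000 in wild type and at 2238, 2642 and 1453 per 1000000 in the libraries labelled AMPKα1-/-. The lowest library labelled AMPKα1-/- there, replicate 3, was level with the higher wild-type library to the digits printed.

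**Figure D2:**
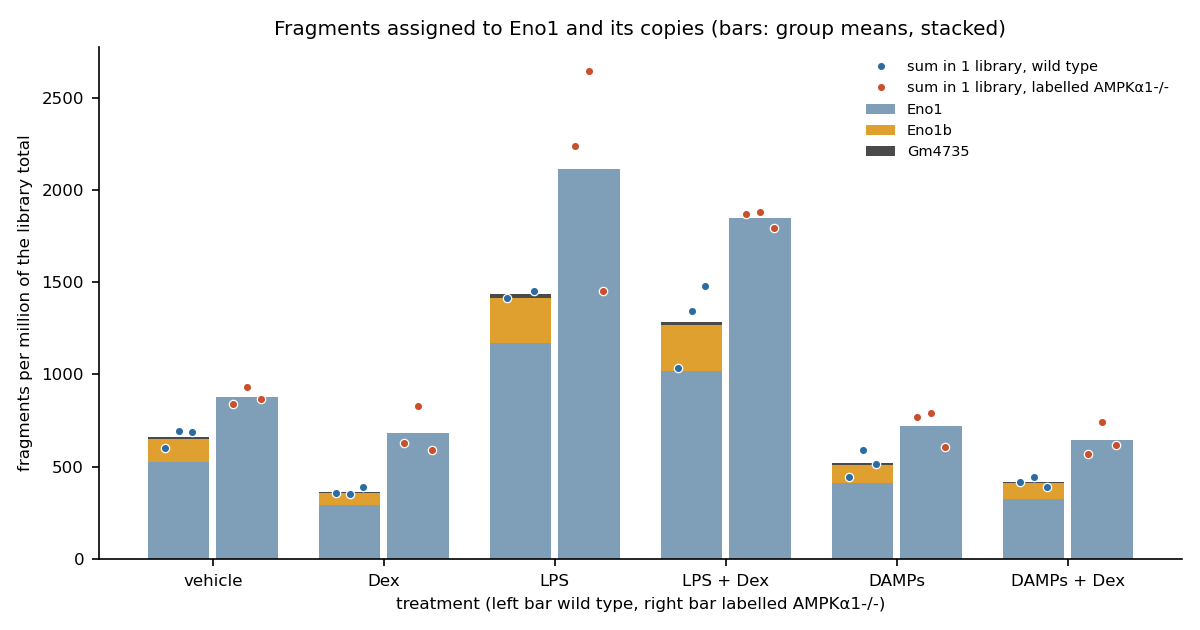
Fragments assigned to Eno1 (blue-grey), Eno1b (yellow) and Gm4735 (dark) per 1000000 fragments of the library, stacked as group means with wild type left and labelled AMPKα1-/- right for each treatment; points are the sums in single libraries. The bars labelled AMPKα1-/- hold practically Eno1 alone and stand 1.33 to 1.86 times as high as the wild-type stacks.

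Eno2, the enolase known from neurons, was a weakly expressed gene in these macrophages. It was at 9.08, 3.48 and 5.81 FPKM in wild-type vehicle libraries and at 3.10, 4.56 and 4.91 FPKM in those labelled AMPKα1-/-, so these groups overlapped. With Dex it was at 1.57, 3.02 and 2.21 FPKM against 1.18, 0.67 and 1.02 FPKM, which did not overlap.

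With LPS Eno2 was at 11.2 and 15.4 FPKM against 5.24, 10.9 and 10.1 FPKM, and with LPS + Dex at 16.3, 12.1 and 18.9 FPKM against 12.6, 13.8 and 8.55 FPKM. With DAMPs it was at 5.42, 6.57 and 5.64 FPKM against 3.70, 3.56 and 3.28 FPKM, and with DAMPs + Dex at 1.55, 1.79 and 3.24 FPKM against 1.03, 1.42 and 0.49 FPKM. The libraries labelled AMPKα1-/- were lower without overlap with Dex, LPS, DAMPs and DAMPs + Dex. Among all genes tested, the share lower without overlap was 30.7% with Dex, 20.9% with LPS, 6.37% with DAMPs and 5.83% with DAMPs + Dex. The log2 difference of Eno2 was -0.72 to -0.40 over the 6 treatments.

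Eno3, the enolase known from muscle, was at 7.43 to 10.3 FPKM in wild-type vehicle libraries and at 7.79 to 8.83 FPKM in those labelled AMPKα1-/-. Its highest group mean, 14.7 FPKM, was in wild type with DAMPs + Dex. The libraries there were at 12.2, 17.4 and 14.6 FPKM, against 7.95, 12.4 and 14.0 FPKM in those labelled AMPKα1-/-. Its log2 difference between the genotypes was -0.40 to -0.01, and the groups did not overlap with LPS + Dex, where 5.3% of all genes were lower without overlap, and with DAMPs, where 6.37% were. Of 4 neuron markers the sum was at most 0.99 FPKM in any library. Of 4 skeletal muscle markers only Mylpf, a myosin light chain, was above 0.117 FPKM, at 0.49 to 4.62 FPKM, and Ckm, Acta1 and Myh4 were at or near 0.

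LPS raised Eno1, the sum over its copies and Eno2 in both genotypes (limma across all genes, Benjamini-Hochberg adjustment, here and in the tests that follow). The sum rose by 1.13 ± 0.18 (SE) on the log2(FPKM + 1) scale in wild type (adjusted p = 6.9e-06) and by 1.22 ± 0.16 in the libraries labelled AMPKα1-/- (adjusted p = 2.8e-07), about 2.19-fold and 2.33-fold. In wild type every LPS library lay above every vehicle library, and the same held for those labelled AMPKα1-/-. LPS raised 19.9% of all genes tested in wild type and 20.2% in the libraries labelled AMPKα1-/-, and shifted the median gene by -0.19 and -0.30. With libraries centred on one median, the sum rose by 1.28 and 1.50.

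Taken singly in wild type, Eno1 rose by 1.16, Eno1b by 0.94 and Gm4735 by 0.91 with LPS (adjusted p = 4.0e-06, 8.5e-05 and 1.9e-06). In the libraries labelled AMPKα1-/- Eno1 rose by 1.22 (adjusted p = 2.1e-07), and Eno1b and Gm4735 were too close to 0 for a change to be given. Eno2 rose by 1.07 ± 0.30 in wild type (adjusted p = 0.0036) and by 0.87 ± 0.27 in the libraries labelled AMPKα1-/- (adjusted p = 0.0063). Without wild-type LPS replicate 3 the adjusted p for Eno2 in wild type was 0.069.

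Eno3 went the other way with LPS. It fell by 0.52 ± 0.19 in the libraries labelled AMPKα1-/- (adjusted p = 0.019), where 44.1% of all genes fell. In wild type its difference was -0.26 ± 0.21 (adjusted p = 0.32). The fall did not stand with other scalings: it was -0.24 (adjusted p = 0.29) with libraries centred on one median and -0.15 (adjusted p = 0.52) after quantile normalization. It also missed the threshold without replicate 3 of vehicle, or replicate 1 or 3 of LPS, labelled AMPKα1-/-, with adjusted p = 0.064, 0.069 and 0.098.

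Dex alone lowered Eno1 and both copies in wild type. The sum fell by 0.85 ± 0.16 (adjusted p = 0.00026), about 1.80-fold, from 643 ± 51.0 FPKM with vehicle to 357 ± 21.7 FPKM (SD, n = 3 each). The differences were -0.84 for Eno1, -0.90 for Eno1b and -0.81 for Gm4735 (adjusted p = 0.00025, 0.00013 and 1.04e-05), and 14.9% of all genes fell.

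In the libraries labelled AMPKα1-/- the sum was 941 ± 50.8 FPKM with vehicle and 730.0 ± 139.5 FPKM with Dex (SD, n = 3 each), a log2 difference of -0.38 ± 0.16 (adjusted p = 0.087). With the replicate number as a block the adjusted p was 0.026, and without Dex replicate 2 the difference was -0.53 (adjusted p = 0.029). Whether the Dex response of the sum differs between the genotypes was not tested, since the genes were chosen on their genotype contrasts.

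Eno2 fell with Dex in both genotypes. Its difference was -1.07 ± 0.27 in wild type (adjusted p = 0.0034) and -1.40 ± 0.27 in the libraries labelled AMPKα1-/- (adjusted p = 0.00023), where 16.0% of all genes fell. The Eno3 differences were 0.30 (adjusted p = 0.23) and 0.43 (adjusted p = 0.093). The second passed the threshold with centred libraries (0.52, adjusted p = 0.045) and after quantile normalization (0.57, adjusted p = 0.028).

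Dex on top of LPS left the enolases within the spread of the libraries. Of the 5 genes in wild type and the 3 in the libraries labelled AMPKα1-/- that could be assessed, 0 passed the threshold for LPS + Dex against LPS with limma, and 0 had an unadjusted p under 0.05, where 34.1% and 37.7% of all genes passed. The sum differed by -0.19 ± 0.18 (adjusted p = 0.47) and -0.15 ± 0.16 (adjusted p = 0.52). Without LPS replicate 3 the second was -0.40 (adjusted p = 0.047).

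DAMPs alone called none of the enolases in either genotype with limma, where 2.01% of all genes in wild type and 4.13% in the libraries labelled AMPKα1-/- passed. In wild type 3 of the 5 genes had an unadjusted p under 0.05, and in the libraries labelled AMPKα1-/- 0 of 3. The sum differed by -0.36 ± 0.16 (adjusted p = 0.45) and -0.29 ± 0.16 (adjusted p = 0.49).

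Dex on top of DAMPs lowered Eno2, with differences of -1.14 ± 0.27 in wild type (adjusted p = 0.0021) and -1.21 ± 0.27 in the libraries labelled AMPKα1-/- (adjusted p = 0.0011). Here 12.6% and 12.2% of all genes fell. The sum differed by -0.32 ± 0.16 (adjusted p = 0.18) and -0.16 ± 0.16 (adjusted p = 0.52). Eno3 differed by 0.43 ± 0.19 (adjusted p = 0.11) and 0.47 ± 0.19 (adjusted p = 0.074), and by 0.69 (adjusted p = 0.012) in the libraries labelled AMPKα1-/- without DAMPs + Dex replicate 1.

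**Figure D3:**
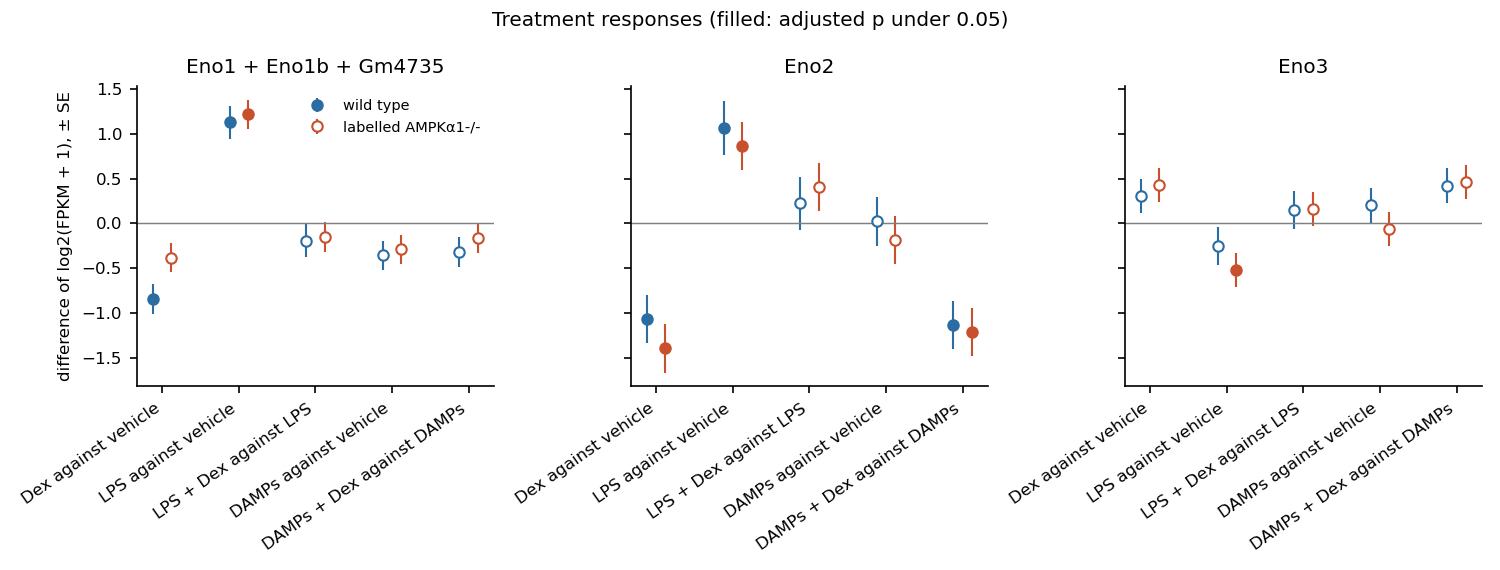
Differences of log2(FPKM + 1) with their SE for the sum over the Eno1 copies, Eno2 and Eno3 in 5 treatment comparisons (blue wild type, red labelled AMPKα1-/-; filled points passed an adjusted p of 0.05). The sum rose with LPS by 1.13 and 1.22, and the Eno2 differences were -1.07 and -1.40 with Dex and -1.14 and -1.21 for DAMPs + Dex against DAMPs.

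Over the libraries of one genotype Eno2 followed Eno1 and Eno3 ran against both. The Pearson correlation of Eno1 with Eno2 was 0.90 over 17 wild-type libraries and 0.84 over 18 libraries labelled AMPKα1-/-. That of Eno1 with Eno3 was -0.70 and -0.71. These describe libraries that share treatments.

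The medians of the summed neutrophil and fibroblast markers differed between treatments and between genotypes, which was not tested. The genotypes overlapped with vehicle for both sums and with LPS for the neutrophil markers. With Dex they did not overlap for either sum. The neutrophil sums did not overlap with DAMPs either, nor the fibroblast sums with LPS or DAMPs + Dex. The remaining comparisons overlapped. The summed level of 7 neutrophil markers, 5 of which had a mean of at least 1 FPKM, had a median of 7.27 FPKM with vehicle, 144 FPKM with LPS and 653 FPKM with LPS + Dex in wild type, and of 24.0, 138 and 346 FPKM in the libraries labelled AMPKα1-/-. S100a8, a calcium-binding protein of myeloid cells, was the most abundant, at up to 1147 FPKM. Camp reached 132.7 FPKM, S100a9 16.4 FPKM, Ngp 7.56 FPKM and Ltf 6.20 FPKM. Only Elane and Mpo stayed at or below 0.48 FPKM in every library. The summed level of 3 fibroblast markers, 2 of which had such a mean, had a median of 7.29 FPKM over wild-type libraries and 1.73 FPKM over those labelled AMPKα1-/-, with Col1a2, a collagen chain, the highest in wild type and Pdgfra at or below 0.39 FPKM. Their part in the enolase values was not tested, and in bulk RNA fewer cells of a type and less RNA per cell cannot be told apart.

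The genomic surroundings of Eno1 held a neighbour with a larger difference. Of 57 annotated genes within 1 Mb of Eno1, 21 were tested apart from Eno1 itself, and 1 of them passed the threshold in all 6 treatments. This was Clstn1, which encodes the membrane protein calsyntenin 1, at chr4:149586468-149648899. It was at 39.5 ± 5.26 FPKM with vehicle in wild type and at 9.32 ± 0.95 FPKM in the libraries labelled AMPKα1-/- (SD, n = 3 each), a log2 difference of -1.97 ± 0.18 (adjusted p = 3.6e-08).

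The single libraries were at 33.5 to 42.7 FPKM and at 8.77 to 10.4 FPKM, which did not overlap. With LPS, where the means of Clstn1 were 6.92 and 1.54 FPKM, the genotype difference was -1.65 ± 0.20 (adjusted p = 1.6e-05), and in the other 4 treatments it was -2.17 to -1.79. Of all genes, 0.203% passed as lower with vehicle and 0.352% with LPS. Rere, a transcriptional corepressor, had the next largest mean difference, -0.44 with a range of -1.03 to -0.02, and passed as lower with Dex alone. Vamp3, a vesicle fusion protein, was higher in 3 treatments (mean log2 difference 0.36) and Gpr157, an orphan receptor, lower in 2 (mean -0.37). Kif1b was lower and Park7 higher with Dex alone, where 26.5% of all genes differed.

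The surroundings of the other members were examined in the same way. Of the 3 tested neighbours of Gm4735, 0 passed in any treatment with limma and 0 had an unadjusted p under 0.05. The 1 tested neighbour of Eno1b passed in 0 treatments, and had an unadjusted p under 0.05 in 1. Of 44 tested neighbours of Eno2, 5 were higher and 6 lower with Dex, and of 61 of Eno3, 9 were higher and 8 lower, where 26.5% of all genes differed with Dex, so that these counts were near the share over all genes. In the other treatments 0 passed around either gene, and 2 to 5 of the Eno2 neighbours and 2 to 4 of the Eno3 neighbours had an unadjusted p under 0.05. The neighbours with the largest mean log2 differences were Pianp (-0.70), Cd4 (-0.55) and 4930557K07Rik (-0.55) for Eno2 and Acap1 (0.69), Gm25835 (-0.46) and Nlgn2 (-0.33) for Eno3. Of these 4930557K07Rik passed in 1 treatment and the others in 0. The mean differences were -0.03 for Commd10, the neighbour of Eno1b, and 0.12, 0.02 and 0.00408 for Dnajc10, Nup35 and Dusp19, those of Gm4735.

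**Figure D4:**
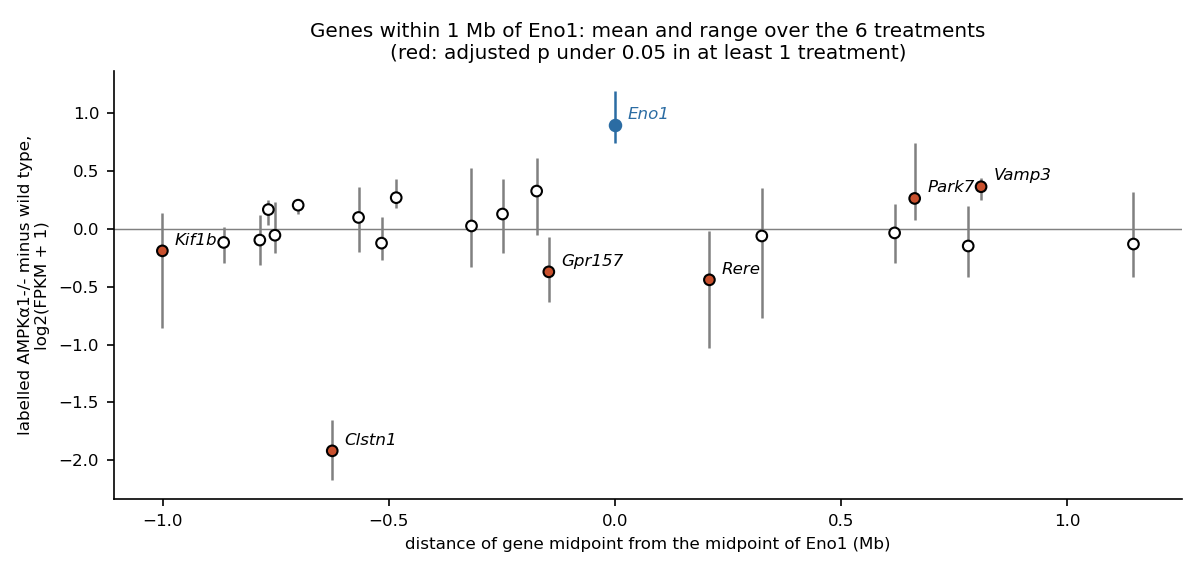
Difference of log2(FPKM + 1) between libraries labelled AMPKα1-/- and wild type for the 21 tested genes within 1 Mb of Eno1 (black outlines) and for Eno1 (blue, not tested), against the distance of their midpoints from that of Eno1. Points are means over the 6 treatments, lines the range, and red marks an adjusted p under 0.05 in at least 1 treatment; Clstn1 is the lowest, at -2.17 to -1.65.

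The genes whose levels were most like that of Eno1 over the 35 libraries, by Pearson correlation of log2(FPKM + 1) among 11354 genes, were Acot7 (0.97, chromosome 4), Xbp1 (0.93), Cptp (0.93, chromosome 4), Surf4 (0.93) and H13 (0.93). Those most like Eno1b were Gm4735 (0.99), Zfp991 (0.93, chromosome 4), Zfp984 (0.91, chromosome 4), C130026I21Rik (0.84, chromosome 1) and Znf41-ps (0.81, chromosome 4). For the sum over the copies they were Acot7 (0.97), Xbp1 (0.95), Surf4 (0.95), Manf (0.94) and Pdia4 (0.94). Each correlation is over all treatments and both genotypes, and is given as a description.

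Of the 37 genes without overlap in all 6 treatments, 13 lie on chromosome 4, or 35.1%, where 6.24% of the tested genes lie. Eno1 and Vamp3 are among the higher ones, and Clstn1, Zfp984, Zfp991 and Znf41-ps among the lower ones. They were found with the same contrast that chose Eno1, so the shares carry no test.

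The other glycolytic enzymes set the enolases beside their pathway. In a list of 15 (hexokinases, Gpi1, phosphofructokinases, aldolases, Tpi1, Gapdh, Pgk1, Pgam1, Pkm and Ldha), 0 differed between the genotypes with vehicle, LPS, LPS + Dex or DAMPs with limma. At an unadjusted p under 0.05 these counts were 1, 1, 2 and 2, and of all genes 0.432%, 0.766%, 0.669% and 0.731% passed the adjusted threshold in these treatments. The list's median log2 difference was -0.01 with vehicle and 0.02 with LPS, beside 0.01 and -0.08 over all genes, and 0.15 with LPS + Dex and 0.11 with DAMPs, beside -0.04 and -0.03.

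With Dex 5 of the 15 were higher in the libraries labelled AMPKα1-/- and 1 was lower, where 11.0% of all genes were higher and 15.5% lower. Pkm, the pyruvate kinase of these cells and the step after enolase, had 366 ± 12.5 FPKM in wild type and 624 ± 125 FPKM in the libraries labelled AMPKα1-/- (SD, n = 3 each), a log2 difference of 0.75 ± 0.17 (adjusted p = 0.0054). Aldoa (0.65), Gpi1 (0.62), Pgk1 (0.62) and Gapdh (0.59) were also higher, and Hk2, an inducible hexokinase, was lower (-0.62). The list's median was 0.42, beside -0.09 over all genes.

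This count rested on single libraries. Without wild-type Dex replicate 2 it was 2 and without labelled AMPKα1-/- Dex replicate 2 it was 1, while other omissions gave up to 7. With DAMPs + Dex Pkm alone was higher, by 0.66 ± 0.17 (adjusted p = 0.047), where 0.555% of all genes were, and it missed the threshold when any one of the 6 libraries was left out. The difference of the Eno1 sum with Dex was 1.01, given without a test. The largest of the 15 enzymes was that of Aldoc, a weakly expressed aldolase, at 1.19 ± 0.46, which missed the threshold (adjusted p = 0.056).

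**Figure D5:**
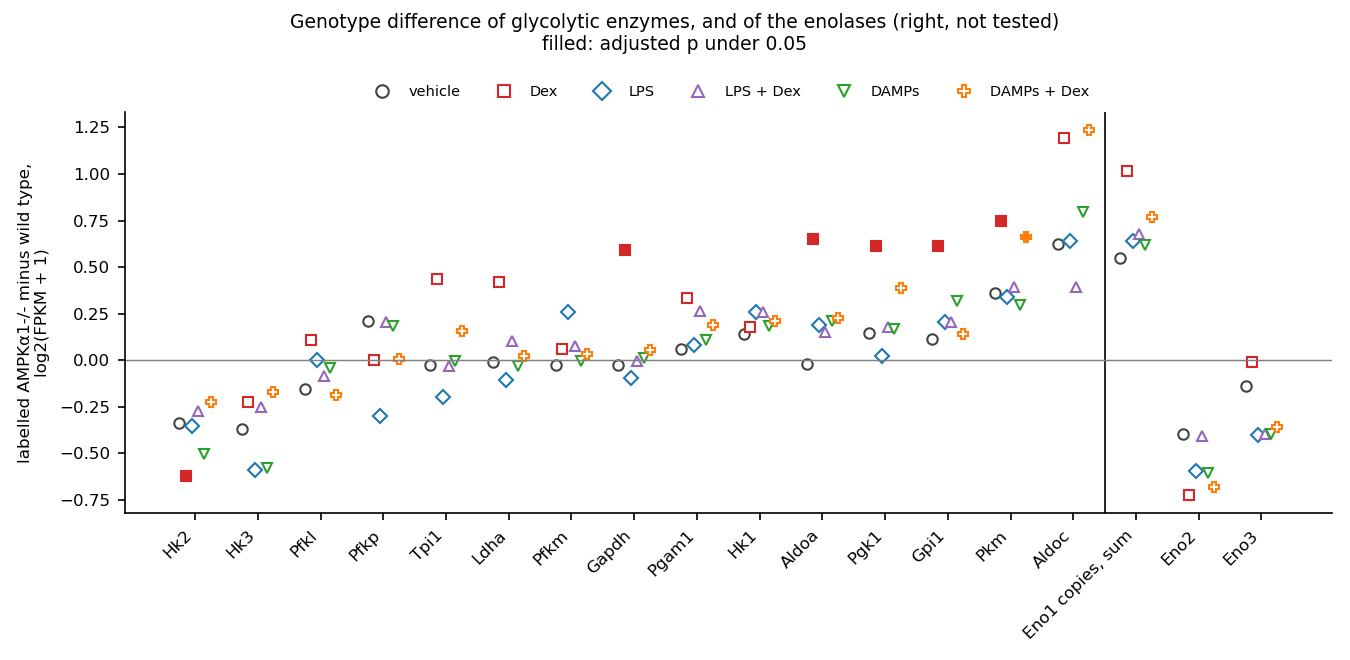
Difference of log2(FPKM + 1) between libraries labelled AMPKα1-/- and wild type for 15 glycolytic enzymes, ordered by their mean, and, right of the line and not tested, for the sum over the Eno1 copies, Eno2 and Eno3; each symbol is 1 treatment and filled symbols passed an adjusted p of 0.05. The filled symbols are the 6 enzymes called with Dex and Pkm with DAMPs + Dex, and the sum over the Eno1 copies lies at 0.55 to 1.01.

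With LPS the list moved with the Eno1 sum for the most part: 10 of the 15 rose and 2 fell in each genotype, with list medians of 0.81 and 0.84 beside -0.19 and -0.30 over all genes. With the replicate block 11 rose and 2 fell in the libraries labelled AMPKα1-/-. Of all genes 19.9% and 20.2% rose, and 35.8% and 44.1% fell. The largest changes in wild type were rises of Hk2 by 2.18, Pfkl by 1.94 and Pgk1 by 1.55 (adjusted p = 8.3e-09, 6.3e-11 and 2.0e-10). Pfkm and Gpi1 fell, with differences of -1.03 and -0.53 (adjusted p = 5.1e-05 and 0.022).

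Dex alone lowered 10 of the 15 in wild type and 8 in the libraries labelled AMPKα1-/-, where 14.9% and 16.0% of all genes fell. With libraries centred on one median the second count was 5. The differences were -2.25 and -1.68 for Aldoc (adjusted p = 0.00049 and 0.0070), -1.54 and -1.40 for Hk3 (adjusted p = 9.3e-07 and 4.3e-06) and -1.23 and -0.85 for Pkm (adjusted p = 2.0e-06 and 0.00030). Dex raised Hk2 in wild type, by 0.83 (adjusted p = 0.0037), and Gpi1 in the libraries labelled AMPKα1-/-, by 0.61 (adjusted p = 0.0091), where 15.9% and 11.9% of all genes rose.

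LPS + Dex against LPS raised 3 and lowered 2 in wild type, and 4 and 2 in the libraries labelled AMPKα1-/-, near the 34.1% and 37.7% of all genes that differed. The latter counts were 6 and 1 after quantile normalization and 2 and 1 with the 2 groups alone. DAMPs against vehicle called 0 in either with limma (5 and 4 at an unadjusted p under 0.05). DAMPs + Dex against DAMPs raised 3 and lowered 7 in wild type and raised 3 and lowered 4 in the libraries labelled AMPKα1-/-. Of all genes 11.7% and 13.1% rose, and 12.6% and 12.2% fell. The count of 4 lowered was 3 to 7 under the other settings, and the genotypes were not compared in it.

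Of 10 HIF1 targets outside glycolysis, LPS raised 8 in each genotype and lowered 1 in wild type and 2 in the libraries labelled AMPKα1-/-, where 19.9% and 20.2% of all genes rose and 35.8% and 44.1% fell. Adm, a secreted vasodilator peptide, rose by 3.74 and 3.15 (adjusted p = 7.5e-15 and 1.7e-14) and Slc16a3, a lactate exporter, by 2.45 and 2.28 (adjusted p = 3.9e-08 and 1.4e-08). Ndrg1 fell, with differences of -3.71 and -4.17 (adjusted p = 5.4e-09 and 4.6e-11). Between the genotypes 2 of the 10 passed, both with Dex, where 26.5% of all genes did, so that the count was no higher than the share over all genes. Slc2a1, the glucose transporter GLUT1, was higher (0.43 ± 0.15, adjusted p = 0.038) and Adm lower (-0.71 ± 0.18, adjusted p = 0.011). LPS + Dex against LPS lowered 5 and raised 0 in wild type, and lowered 4 and raised 1 in the libraries labelled AMPKα1-/-, where 17.5% and 18.4% of all genes fell. Dex alone raised 1 and lowered 4 in wild type, where 15.9% of all genes rose and 14.9% fell. In the libraries labelled AMPKα1-/- it raised 0 and lowered 3, where 11.9% rose and 16.0% fell. DAMPs lowered 1 in each, where 2.01% and 4.13% of all genes differed. DAMPs + Dex against DAMPs raised 2 and lowered 1 in wild type, where 11.7% rose and 12.6% fell. It raised 1 and lowered 1 in the libraries labelled AMPKα1-/-, where 13.1% rose and 12.2% fell. The DAMPs + Dex counts were near these shares.

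Of the 7 AMPK subunit genes 5 were expressed enough to be tested, and between the genotypes 1 passed, with Dex, where 11.0% of all genes were higher and 26.5% differed, so that 1 of 5 was near the share over all genes. This was Prkag1, a regulatory γ subunit, which was higher in the libraries labelled AMPKα1-/- (0.68 ± 0.16, adjusted p = 0.0087). The median levels in wild type and in the libraries labelled AMPKα1-/- were 32.3 and 36.9 FPKM for Prkab1 and 5.49 and 4.98 FPKM for Prkab2, the β subunits, and 24.2 and 25.0 FPKM for Prkag2, another γ subunit. Prkaa2, the other catalytic subunit, was at or below 0.13 FPKM in every library, and Prkag3 at or below 0.231 FPKM. LPS lowered 2 of the 5 in wild type and 4 in the libraries labelled AMPKα1-/-, with differences of -2.34 and -2.84 for Prkag2 (adjusted p = 3.7e-11 and 4.8e-14) and -0.71 and -0.96 for Prkab2 (adjusted p = 0.0070 and 9.9e-05), where 35.8% and 44.1% of all genes fell. Dex alone raised 2 of the 5 in wild type and 1 in the libraries labelled AMPKα1-/-, where 15.9% and 11.9% of all genes rose. In wild type Prkaa1 itself rose with Dex, by 0.63 ± 0.23 (adjusted p = 0.041). DAMPs + Dex against DAMPs raised 2 in each, where 11.7% and 13.1% of all genes rose. LPS + Dex against LPS raised 1 in each and lowered 1 in wild type, where 34.1% and 37.7% of all genes differed.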

How the data were processed

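RNA of 35 macrophage cultures was sequenced and the authors deposited FPKM values per Ensembl gene. The submitters' processing notes name Bowtie2 2.2.3, TopHat2 2.0.12, HTSeq 0.6.1, DESeq2 and the GRCm38 and mm10 names of the mouse build, without their order or settings. Annotation release and multi-mapping settings were not stated by the sources used here. By default HTSeq leaves such reads out. Symbols and positions came from GENCODE M21 on GRCm38, in which 46574 of 47069 identifiers had an entry.

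The members and gene lists were chosen with earlier results of these data known. In the FPKM of weakly expressed genes, 1 fragment makes a fixed step, which gave the library totals (median 19973568 fragments). With the mean transcript length as gene length, 81.5% to 84.6% of low genes came out within 0.01 of a whole fragment, against 57.5% to 65.5% with the union of exons. Totals limit precision by counting error only.

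Genes with a mean of at least 1 FPKM (11354) were tested as log2(FPKM + 1) with limma 3.58.1 in R 4.3.3, in 1 model of 12 groups with trended variances, 2-sided, with Benjamini-Hochberg adjustment over all genes and a threshold of 0.05. The pseudocount understates changes of low genes. The sum over the copies was tested as a further feature in the same model. The test was tried on simulated data. Sequences were aligned with Biopython 1.88, and Python 3.11.15, numpy 2.4.6, pandas 2.3.3 and matplotlib 3.10.9 were used.

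Named were the members, AMPK subunits, up to 3 of the largest changes of each list in the contrasts described, up to 3 of the largest mean differences among the neighbours of each member within 1 Mb, and the 5 genes most like Eno1, Eno1b and the sum. Further genes were named after their values were seen, where 6 or fewer passed or some lay on chromosome 4, and not all of the latter are reported here. As alternatives, the pseudocount was set to 0.1, the filter was dropped or raised to 5 FPKM, and the model was refitted with median centring, quantile normalization, 2 groups alone, a replicate block, copies summed as fragments and each library left out. Levels in fragments per 1000000 were added after seeing the data.

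The sources do not say what a replicate number marks. Deviations from the group means correlated above 0.1 between same-numbered libraries in each of 3 pairs for labelled AMPKα1-/- with Dex and vehicle (0.30, 0.22 and 0.40), LPS and vehicle (0.24, 0.12 and 0.32) and LPS + Dex and LPS (0.37, 0.37 and 0.36), and between the genotypes with LPS + Dex (0.12, 0.12 and 0.51), so that the numbers were taken to pair these libraries. Comparisons with wild-type LPS have only 2 pairs and are not counted as paired here. Of these, wild-type LPS + Dex and LPS (0.11 and 0.43) and LPS between the genotypes (0.13 and 0.11) also lay above 0.1.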

Additional observations from a re-analysis of the deposited data

How the results depend on the processing

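Across the alternatives, 132 of 138 recomputed treatment differences of the sum over the Eno1 copies kept their direction and side of the threshold, as did 479 of 505 for single enolases. Of 258 genotype differences, taken as means over the 6 treatments, 254 moved by less than the spread between libraries. Most of these runs left out a single library, which can hardly move such a mean that far, so this count tests little. The genotype difference of the sum, 0.71 as a mean over treatments, was 0.77 with centred libraries, 0.61 after quantile normalization, 0.57 as fragments and 0.68 to 0.75 with single libraries left out. That of Eno1b, -5.98, was -8.22 with a pseudocount of 0.1 and -6.65 in fragments per 1000000, and that of Gm4735, -3.10, was -5.63 and -3.41. Both are set by the pseudocount, as the lower group is near 0. Gm4735, with a mean of 4.35 FPKM, was not tested with a minimum of 5 FPKM.

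The Dex response of the sum in the libraries labelled AMPKα1-/-, -0.38, was called after quantile normalization (-0.47, adjusted p = 0.025) and with the replicate block (-0.38, adjusted p = 0.026), and was -0.53 to -0.28 with single libraries left out. LPS + Dex against LPS in the same genotype reversed to 0.11 for the sum and Eno1 after quantile normalization, and ran from -0.40 to 0.034 for both with single libraries left out. Without LPS replicate 3 the adjusted p was 0.047 for the sum and 0.041 for Eno1. Eno3 with DAMPs in that genotype reversed to 0.0078 with centred libraries and 0.032 after quantile normalization. With single libraries left out, the wild-type LPS + Dex against LPS differences ran from -0.18 to 0.24 for Eno1b, -0.0039 to 0.30 for Eno3 and -0.18 to 0.043 for Gm4735, and Eno2 with DAMPs in wild type from -0.27 to 0.31. The cause was not tested.

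Genotype calls among the 15 glycolytic enzymes with Dex numbered 6, and 1 to 7 with single libraries left out. With DAMPs + Dex there was 1, and 0 with a pseudocount of 0.1, no filter, centred libraries, the 2 groups alone or any library left out. In the libraries labelled AMPKα1-/- the glycolytic enzymes lowered by DAMPs + Dex against DAMPs, 4, were 7 with the replicate block, 6 with a minimum of 5 FPKM and 3 with no filter or quantile normalization. With DAMPs the block called 2 lower in wild type and 3 in the libraries labelled AMPKα1-/-, in place of 0.

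Where the numbers did not pair libraries by the check, the replicate block moved the genotype calls with vehicle from 49 to 83, and brought Eno1 with DAMPs + Dex against DAMPs in wild type to an adjusted p of 0.045 (-0.34). In these comparisons 0 to 4 of 6 libraries correlated best with their own number. Among the paired comparisons the block changed no call of the enolases other than the Dex response of Eno1 and the sum. Low fragment counts limit Eno2 and Eno3 and the copies in the libraries labelled AMPKα1-/-, and sequence identity limits every single copy. It limits the sum as well, should reads that match several copies have been left out.

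The numbers of genes called over all genes, against which the counts were read, depended on the setting. Genotype calls with the 2 groups alone were 19 in place of 49 with vehicle, 3 in place of 87 with LPS, 7 in place of 77 with LPS + Dex, 11 in place of 83 with DAMPs and 35 in place of 121 with DAMPs + Dex. With no filter they were 92 with vehicle, 450 with LPS and 146 with LPS + Dex, with a minimum of 5 FPKM 27 with vehicle and 54 with DAMPs, and with a pseudocount of 0.1 they were 41 with DAMPs. In wild type, the 2 groups alone gave 1 call in place of 228 for DAMPs against vehicle and 2065 in place of 3871 for LPS + Dex against LPS. These totals count the sum over the copies as a feature, and apart from the replicate block with vehicle the other totals stayed within 1.5 times under these settings, single libraries left out not being counted here.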
